A study of Mus musculus with 8 samples.

Results

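The set described here holds 9 mouse long non-coding RNA genes with neural, imprinted or nuclear-body roles: C130071C03Rik, Mir17hg, Meg3, H19, Malat1, Neat1, Miat, Snhg11 and Rmst. They were chosen by gene symbol with the levels and fold changes of the same 8 libraries already known, and were looked up among the 14954 genes of the deposited expression table. Of the 9 genes, 8 had a row of their own. Rmst had none and is not analysed here, although 2 small RNA features inside it were measured. Since these values took part in the choice, the comparisons below describe these genes and give no independent support for a pattern among them.

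The libraries came from cortical-type progenitors grown from a single engineered mouse embryonic stem cell line, A2 lox.Cre Bcl6, in which tetracyclines switch on an added copy of Bcl6. Bcl6 is a transcriptional repressor that promotes neurogenesis in the cortex. In the Bcl6-induced group (4 libraries), progenitors at differentiation day 12 had received 1 µg/ml doxycycline for 24 h, and in the control group (4 libraries) they had received DMSO instead. Cells of both groups carried the transgene, were taken from a line kept on mouse embryonic fibroblasts, and had been given 400 ng/ml cyclopamine, which blocks hedgehog signalling, from day 2 to day 10. No library had doxycycline without the transgene, so effects of Bcl6 and of doxycycline cannot be told apart.

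Long non-coding RNAs act as RNA and not through a protein, and many of them are processed into smaller RNAs or build nuclear structures. Host genes such as C130071C03Rik and Mir17hg release microRNAs, which pair through their seed (bases 2 to 8) with messenger RNAs and lower their output. Meg3 and H19 are imprinted and transcribed from the maternal chromosome, Malat1 and Neat1 mark nuclear speckles and paraspeckles, and Miat, Snhg11 and Rmst are known from neural cells. All 9 genes carry the tag for hosts of smaller non-coding RNAs in the GENCODE M21 annotation, which types Snhg11 as protein-coding.

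The mature microRNAs are shown because they are what connects several of these transcripts to other genes. Sequences are RNA, 5′ to 3′, from RefSeq (GRCm38.p6), with the seed in capitals. Those of C130071C03Rik come from the Mir9-2 hairpin in its exons, at chr13:83738814-83738885 on the plus strand:
miR-9-5p: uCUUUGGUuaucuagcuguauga
miR-9-3p: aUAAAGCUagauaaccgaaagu
Mir17hg holds the miR-17 cluster on the plus strand of chromosome 14, in which miR-17-5p and miR-20a-5p share a seed, as do miR-19a-3p and miR-19b-3p:
miR-17-5p: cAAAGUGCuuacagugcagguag
miR-20a-5p: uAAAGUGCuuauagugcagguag
miR-18a-5p: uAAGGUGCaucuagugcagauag
miR-19a-3p: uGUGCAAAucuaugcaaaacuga
miR-19b-3p: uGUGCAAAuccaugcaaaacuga
miR-92a-3p: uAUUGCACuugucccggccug
H19 holds the Mir675 hairpin (chromosome 7, minus strand) and Meg3 holds Mir770 (chromosome 12, plus strand), each with seeds unlike those above:
miR-675-5p: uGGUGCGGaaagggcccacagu
miR-675-3p: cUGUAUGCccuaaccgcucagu
miR-770-5p: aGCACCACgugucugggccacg
miR-770-3p: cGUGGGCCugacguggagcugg
The libraries measured the long host transcripts. They did not measure these mature RNAs, so a host level says nothing certain about the level of its microRNA.

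Reads recovered from the deposited values came to 15.02, 11.04, 11.28 and 10.33 M reads in Bcl6-induced libraries 1 to 4 and to 9.42, 9.49, 9.74 and 9.54 M reads in control libraries 1 to 4, so every induced library was deeper. Levels are given as CPM, the deposited value per M of its library's total. Bcl6 itself averaged 391.5 ± 47.1 CPM in induced libraries and 6.49 ± 0.491 CPM in controls (SD, n = 4 each), counting transgene and endogenous transcripts together. With limma on log2(value + 1) and Benjamini-Hochberg adjustment over all 14954 genes, 1019 genes passed an adjusted p of 0.05, of which 681 were higher and 338 lower. That split was 536 higher and 424 lower with median-of-ratios scaling, and 501 higher and 474 lower with upper quartile scaling. The count was 308 without induced library 1, 350 without induced library 2, 649 without induced library 3, 1697 without control 1 and 359 without control 2. Markers of stem cells were present in both groups beside those of progenitors: Pou5f1, a pluripotency factor, averaged 443 ± 42.0 CPM in induced libraries and 538 ± 65.7 CPM in controls. Pax6, a progenitor factor, averaged 15.8 ± 5.68 CPM in induced libraries and 20.7 ± 2.47 CPM in controls. Of 6 stem cell markers Nanog, Zfp42 and Esrrb were called higher and none lower (sums of 1260 to 1520 CPM in induced libraries and 1197 to 1344 CPM in controls), and of 4 measured neural crest markers Tfap2a and Ets1 were called higher (66.7 to 75.4 CPM in induced libraries and 54.4 to 61.9 CPM in controls). Of these 5 calls, those of Nanog and Ets1 held in all 8 fits that left out 1 library, and those of Zfp42, Esrrb and Tfap2a did not. All 3 ended without control 2 and without induced library 1 or 2, that of Zfp42 also without induced library 3 or 4, and that of Tfap2a without any single library other than control 1.

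Of the 8 measured long non-coding RNAs, C130071C03Rik alone passed the test, with a lower level in induced libraries. The other 7 did not pass, 4 of them with fold changes above 0 and 3 below. Of all 14954 genes, 6.81% were called, 2.26% lower and 4.55% higher. C130071C03Rik was also the only one of the 8 whose groups did not overlap, with every induced library below every control, as was so for 6.17% of all genes (10.7% of all genes lay above in every induced library). Across all 8 libraries, both groups together, the highest library exceeded the lowest by 1.57 times for H19 and by 11.2 times for C130071C03Rik.

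**Figure D1:**
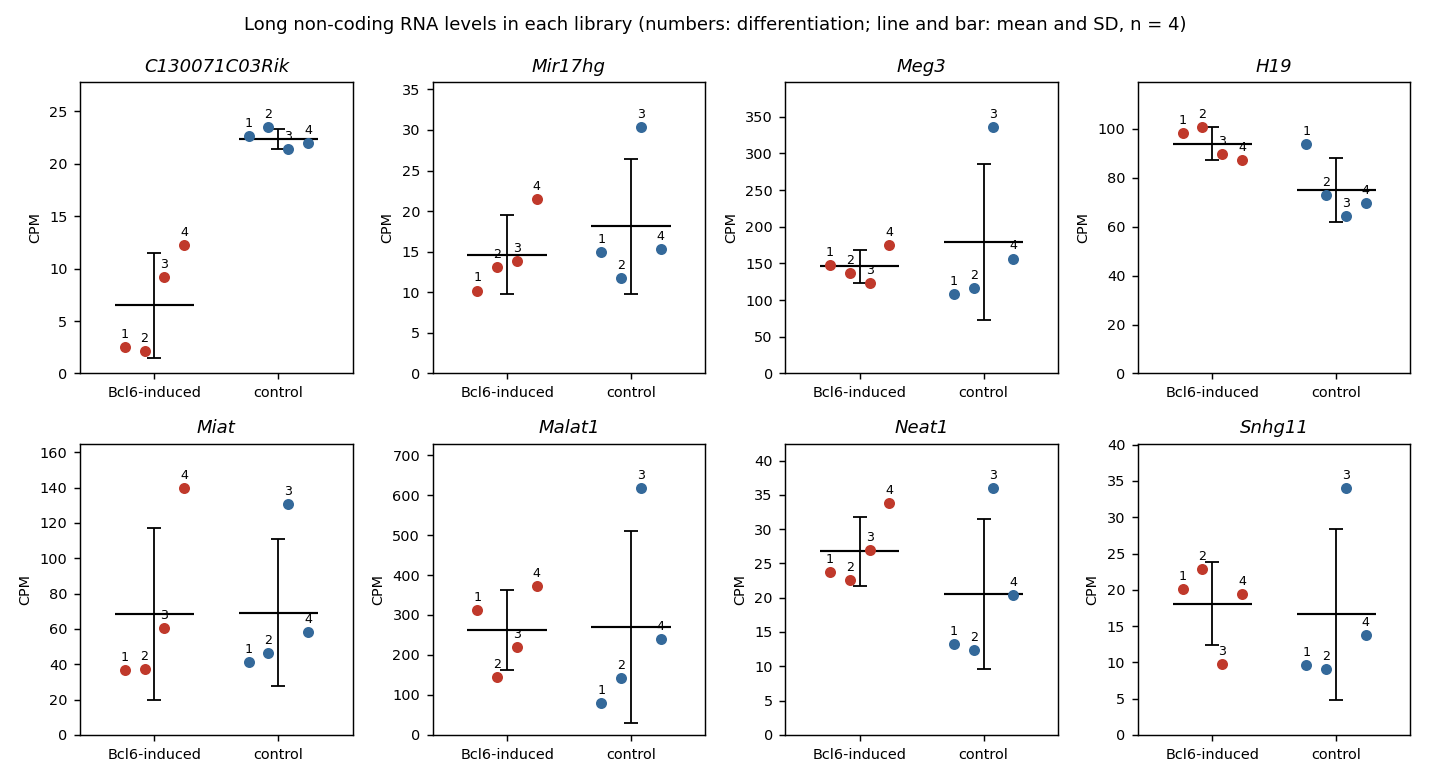
Level of each of the 8 measured long non-coding RNAs in CPM (vertical axes, linear from 0), with each point a library numbered as its differentiation and lines and bars the mean and SD, Bcl6-induced left of control. C130071C03Rik is the only gene whose groups stand apart, at 2.10 to 12.2 CPM in induced libraries and 21.4 to 23.5 CPM in controls.

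C130071C03Rik, a long intergenic RNA of neural progenitors and the host of Mir9-2, was lower after Bcl6 induction. It lies at chr13:83721381-83884194 on the plus strand (GRCm38), with 5.66 kb of annotated exon sequence over 5 transcripts. Of these exon bases 1327 are shared with Gm33366 on the opposite strand. Whether counting used strand is not given, so reads of the 2 genes over those bases cannot be told apart here. Its level was 2.56, 2.10, 9.17 and 12.2 CPM in induced libraries 1 to 4, against 22.6, 23.5, 21.4 and 22.0 CPM in controls 1 to 4. The controls lay close together while the induced libraries formed a lower pair (1 and 2) and a higher pair (3 and 4), both below every control. The recovered reads behind these levels numbered 38, 23, 103 and 126 in induced libraries and 213, 223, 208 and 210 in controls. Means were 6.51 ± 4.99 CPM in induced libraries and 22.4 ± 0.928 CPM in controls (SD, n = 4 each), which gave a log2 fold change of -2.16 ± 0.48 (SE; 95% interval -3.21 to -1.11, limma adjusted p = 0.025). The SD of its log2 values was 1.27 in induced libraries and 0.06 in controls.

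The log2 fold change was -3.24 with induced libraries 3 and 4 left out and -1.08 with 1 and 2 left out. These pairs were picked from the values, so both are given as a description and with no test. Leaving out single libraries ended the call for control 2 (-2.13, adjusted p = 0.082), induced library 1 (-1.84, adjusted p = 0.079) and induced library 2 (-1.75, adjusted p = 0.063), all in limma and with the direction kept. Some progenitor markers were also lowest in induced libraries 1 and 2, and others were not. The sum over 9 of them was 1003, 1022, 1323 and 1295 CPM in induced libraries 1 to 4, against 1799, 1572, 1407 and 1542 CPM in controls 1 to 4. Vim, an intermediate filament gene that was not called (limma adjusted p = 0.22), had 465, 485, 637 and 608 CPM of it in induced libraries and 826, 678, 549 and 637 CPM in controls. Of those 9, Nes, Fabp7, Slc1a3 and Hes5 were called lower, and Lhx2 higher. Nes had 153, 152, 217 and 235 CPM in induced libraries 1 to 4, whereas Slc1a3 had 86.5, 83.8, 89.4 and 86.6 CPM and so did not show the pairs. The calls of Slc1a3 and Lhx2 held in all 8 fits that left out 1 library, while those of Nes, Fabp7 and Hes5 ended without control 2 or 4 and without induced library 1 or 2, that of Fabp7 also without control 3 and that of Hes5 also without control 1 or 3. Over 8 neuronal markers, 5 were called higher and none lower, with sums of 1208 to 1457 CPM in induced libraries and 754 to 904 CPM in controls. No measured marker of either list was at 0 in any library. The part of cell composition in the level of C130071C03Rik was not tested, and in these bulk libraries fewer cells of a type and less RNA per cell cannot be told apart.

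The genes whose library profile lay nearest to that of C130071C03Rik were sought among 13552 genes by the mean absolute difference of log2 values, each centred on its own mean, over the 8 libraries. The nearest were Fam181a (0.15), Pdzph1 (0.25), Fabp7 (0.27), Ednrb (0.27) and Fgfbp3 (0.27). Fabp7, a fatty acid binding protein of radial glia, had 9.47, 13.98, 76.6 and 87.4 CPM in induced libraries and 214, 184, 146 and 174 CPM in controls. Ednrb, an endothelin receptor, had 11.6, 9.72, 27.8 and 32.5 CPM in induced libraries and 59.5, 67.8, 48.7 and 67.9 CPM in controls. Both showed the same lower and higher pair of induced libraries. They were picked for this likeness, which is a description and not a test.

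Both arms of miR-9 are identical in sequence across the 3 mouse Mir9 hairpins, so a second host can give rise to the same mature RNA, which was not measured. Mir9-3hg, which holds Mir9-3, had 0.752, 1.202, 1.90 and 3.31 CPM in induced libraries and 4.16, 2.65, 3.91 and 3.81 CPM in controls. Its groups overlapped, induced library 4 lying above control 2, and it rested on 11 to 34 recovered reads in induced libraries and 25 to 39 in controls. The log2 fold change was -1.18 ± 0.38 and did not pass (limma adjusted p = 0.091). Mir9-1 lay in no gene of the table.

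Mir17hg, the host of the miR-17 cluster and a target of Myc factors in proliferating cells, did not pass the test. It lies at chr14:115042879-115046727 on the plus strand, and had 10.2, 13.1, 13.8 and 21.5 CPM in induced libraries and 15.0, 11.7, 30.4 and 15.3 CPM in controls. The groups overlapped, with control 3 highest of all libraries. The log2 fold change was -0.26 ± 0.29 (95% interval -0.89 to 0.37, limma adjusted p = 0.62) and 0.02 without control 3. Of its known regulators, Myc averaged 26.8 ± 3.05 CPM in induced libraries and 35.2 ± 4.55 CPM in controls (log2 fold change -0.39 ± 0.11, adjusted p = 0.064), and Mycn averaged 120.1 ± 4.91 CPM in induced libraries and 127 ± 8.58 CPM in controls (adjusted p = 0.53).

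Among 30 other hosts of microRNAs or small nucleolar RNAs that were listed, 21 had a row. Of these 2 were called lower and none higher in limma, with a median log2 fold change of -0.22, against -0.13 over all 667 long non-coding RNA genes of the table and 0.03 over all genes. Mir670hg had 1.90, 2.35, 2.30 and 1.85 CPM in induced libraries and 7.37, 4.76, 4.41 and 4.61 CPM in controls (log2 fold change -1.28 ± 0.20, limma adjusted p = 0.0059). Its groups did not overlap and its call held in all 8 fits that left out 1 library, on 19 to 28 recovered reads in induced libraries and 43 to 69 in controls. Mir99ahg, host of the miR-99a and let-7c cluster, averaged 1.08 ± 0.714 CPM in induced libraries and 2.98 ± 0.742 CPM in controls (log2 fold change -1.64 ± 0.43, limma adjusted p = 0.046), but its call ended when any single library other than induced library 4 was left out, with adjusted p reaching 0.14. Only 4 to 20 recovered reads in induced libraries and 21 to 39 in controls lay behind these levels. Gas5, a host of small nucleolar RNAs, averaged 104 ± 3.79 CPM in induced libraries and 126 ± 22.1 CPM in controls and did not pass (limma adjusted p = 0.17).

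Neither imprinted long non-coding RNA passed. Meg3, a maternally expressed RNA of the Dlk1-Dio3 domain with growth-suppressing activity, lies at chr12:109541001-109571726 on the plus strand. It had 148, 137, 124 and 175 CPM in induced libraries and 108, 116, 336 and 157 CPM in controls. Control 3 stood above the other 7 libraries, control 4 lay among the induced libraries, and controls 1 and 2 lay below all of them. Means were 146 ± 22.0 CPM in induced libraries and 179 ± 107 CPM in controls, with a log2 fold change of -0.15 ± 0.29 (95% interval -0.79 to 0.49, limma adjusted p = 0.80) that turned to 0.21 without control 3. None of the 5 other genes of the domain passed. Rian, the neighbouring maternal transcript and host of small nucleolar RNAs, averaged 305 ± 13.0 CPM in induced libraries and 337 ± 46.4 CPM in controls, and Mirg, a microRNA host, averaged 10.7 ± 1.496 CPM in induced libraries and 14.01 ± 3.86 CPM in controls. Dlk1, the paternally expressed Notch-related protein gene at the other end, averaged 44.9 ± 11.2 CPM in induced libraries and 38.2 ± 5.07 CPM in controls. In limma the adjusted p of Rian was 0.4, of Mirg 0.25, of Dlk1 0.48, of Rtl1 0.79 and of Dio3 0.17.

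H19, the maternally expressed partner of Igf2 and host of miR-675, was the steadiest of the 8. It lies at chr7:142575529-142578143 on the minus strand. Its level was 98.3, 100.8, 89.6 and 87.2 CPM in induced libraries and 93.8, 72.8, 64.2 and 69.6 CPM in controls. Control 1 lay among the induced libraries and the other 3 controls lay below them. Means were 94.0 ± 6.61 CPM in induced libraries and 75.1 ± 13.0 CPM in controls, with a log2 fold change of 0.34 ± 0.11 (95% interval 0.09 to 0.58) that did not pass (limma adjusted p = 0.099). Without control 1, the control that lay highest, it was 0.45 and passed (limma adjusted p = 0.0044). With any other single library left out it did not pass (limma adjusted p of 0.12 to 0.25). Igf2, the paternally expressed growth factor gene, had 1074, 1128, 946 and 1097 CPM in induced libraries and 917, 868, 867 and 1123 CPM in controls, and did not pass (log2 fold change 0.17 ± 0.10, limma adjusted p = 0.3). H19 is also abundant in mesoderm, endoderm and mesenchyme. Over 8 mesoderm, endoderm and extraembryonic markers, T and Cdx2 were called higher and none lower, with sums of 147 to 169 CPM in induced libraries and 87.4 to 113 CPM in controls. Sums over 7 mesenchymal and fibroblast markers were 549.7 to 666 CPM in induced libraries and 509 to 657 CPM in controls, and none of these was called. The part of such cells in the level of H19 was not tested.

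Of 26 imprinted genes listed beside Meg3 and H19, 25 had a row, and in limma 2 were called higher and none lower, with a median log2 fold change of 0.21. Peg10, a paternally expressed gene derived from a retrotransposon, averaged 2037 ± 112 CPM in induced libraries and 1085 ± 237 CPM in controls (log2 fold change 0.94 ± 0.14, limma adjusted p = 0.0046), and its call held in all 8 fits that left out 1 library. Plagl1, a zinc finger factor, averaged 154 ± 13.9 CPM in induced libraries and 114 ± 17.1 CPM in controls (log2 fold change 0.44 ± 0.11, limma adjusted p = 0.038). Its call ended without control 2, without control 4 and without induced library 1, 2 or 3. Kcnq1ot1, the long antisense RNA of another imprinted domain, had 6.56, 4.71, 8.17 and 19.7 CPM in induced libraries and 2.25, 3.21, 27.1 and 13.8 CPM in controls. It varied more within groups than between them (limma adjusted p = 0.89).

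The 2 nuclear-body RNAs of chromosome 19 did not pass and varied widely within groups. Malat1, a speckle-associated RNA whose mature 3′ end is not made by polyadenylation, lies at chr19:5795690-5802672 on the minus strand. It had 312, 144, 220.4 and 372 CPM in induced libraries and 80.9, 143, 617 and 241 CPM in controls. Both the highest and the lowest library were controls, 3 and 1. Since poly(A) RNA was sequenced, the capture of Malat1 may have differed between libraries, which was not tested. The log2 fold change was 0.28 ± 0.51 (95% interval -0.85 to 1.41, limma adjusted p = 0.78), and -0.17 without control 1. Neat1, the RNA scaffold of paraspeckles, lies at chr19:5824708-5845478 on the same strand. It had 23.7, 22.6, 27.0 and 33.8 CPM in induced libraries and 13.3, 12.4, 35.97 and 20.3 CPM in controls. All controls except control 3 lay below every induced library, and the log2 fold change was 0.50 ± 0.29 (95% interval -0.13 to 1.14, limma adjusted p = 0.31). Without control 3, the control that lay highest, it was 0.82 and passed (limma adjusted p = 0.038). It passed in no other of the 20 alternative fits, and limma adjusted p was 0.33 to 0.59 with any other single library left out.

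None of 14 genes for paraspeckle or speckle proteins passed the same test, and their median log2 fold change was -0.10. Nono, a core paraspeckle protein, averaged 634 ± 23.5 CPM in induced libraries and 708 ± 47.2 CPM in controls (limma adjusted p = 0.2). Sfpq, its partner in paraspeckles, averaged 461 ± 36.9 CPM in induced libraries and 491 ± 19.3 CPM in controls (limma adjusted p = 0.46). Their levels spanned narrower ranges than those of Malat1 and Neat1.

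Miat and Snhg11, both known from neurons, also did not pass. Miat, a nuclear RNA that binds splicing factors, lies at chr5:112213228-112229395 on the minus strand. It had 36.9, 37.4, 60.5 and 139.6 CPM in induced libraries and 41.0, 46.6, 131 and 58.4 CPM in controls. In each group 1 library, induced 4 and control 3, exceeded the others more than those differed from each other. The log2 fold change was -0.08 ± 0.44 (95% interval -1.04 to 0.88, limma adjusted p = 0.94) and changed sign in 3 of the 8 fits that left out 1 library, to 0.28 without control 3, 0.14 without induced library 1 and 0.13 without induced library 2. Of the splicing factors known to bind Miat, Celf3 averaged 36.5 ± 3.86 CPM in induced libraries and 24.97 ± 1.71 CPM in controls and was called higher (log2 fold change 0.55 ± 0.10, limma adjusted p = 0.01). Celf3 was the only one called among 11 listed partners and regulators. Sf1 averaged 373 ± 15.4 CPM in induced libraries and 375 ± 19.7 CPM in controls (limma adjusted p = 0.96), and Qk averaged 357 ± 30.4 CPM in induced libraries and 442 ± 66.5 CPM in controls (limma adjusted p = 0.12).

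Snhg11, a host of small nucleolar RNAs at chr2:158375638-158386145 on the plus strand, had 20.1, 22.8, 9.77 and 19.4 CPM in induced libraries and 9.67, 9.07, 34.0 and 13.7 CPM in controls. Induced library 3 lay among the controls and control 3 lay above every induced library. The log2 fold change was 0.27 ± 0.39 (95% interval -0.59 to 1.13, limma adjusted p = 0.72). The 5 neuronal markers called higher were Tubb3, Dcx, Map2, Elavl3 and Elavl4. Tubb3, a neuronal tubulin, averaged 327 ± 42.1 CPM in induced libraries and 170 ± 28.9 CPM in controls (log2 fold change 0.96 ± 0.13, limma adjusted p = 0.0031). Stmn2 (log2 fold change -0.02, limma adjusted p = 0.93), Rbfox3 (-0.25, adjusted p = 0.42) and Snap25 (0.19, adjusted p = 0.42) of the same list were not called. Miat and Snhg11 were not called either.

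**Figure D2:**
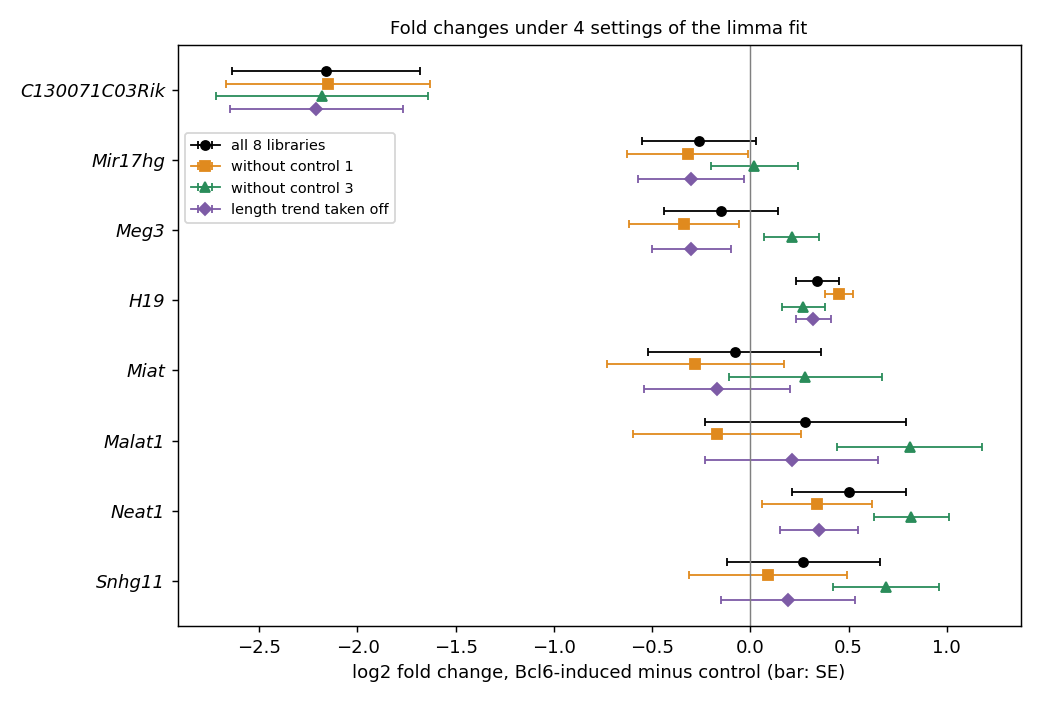
Log2 fold change of each measured long non-coding RNA, Bcl6-induced minus control, on the log2(value + 1) scale (horizontal axis; bars are SE), with all 8 libraries, without control 1, without control 3 and with the trend on exon length taken off. C130071C03Rik stays near -2.16 and H19 above 0 in these 4 fits, while Mir17hg, Meg3, Miat and Malat1 lie on either side of 0. Not shown are the fits that ended the call of C130071C03Rik with 1 library left out. These were without control 2 (-2.13), induced library 1 (-1.84) or induced library 2 (-1.75).

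Rmst, a neural RNA that binds Sox2 in human cells, spans chr10:92071037-92165170 on the minus strand and is not analysed here. Gm27544, a short feature annotated as miscellaneous RNA on the same strand, lies within it at chr10:92071661-92071815 and shares 50 of its 155 bases with Rmst exons. Its sequence on that strand (GENCODE M21, GRCm38) is shown with the shared bases in capitals, since reads over those bases could come from either transcript:
Gm27544: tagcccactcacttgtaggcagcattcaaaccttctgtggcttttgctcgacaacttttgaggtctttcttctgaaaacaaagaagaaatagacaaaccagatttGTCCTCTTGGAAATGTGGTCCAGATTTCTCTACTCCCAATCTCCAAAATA
It had 3.56, 3.91, 4.61 and 5.81 CPM in induced libraries and 6.26, 4.26, 6.57 and 5.16 CPM in controls. The groups overlapped and the log2 fold change of -0.32 ± 0.20 did not pass (limma adjusted p = 0.36). Gm27753, a second such feature of 203 bases that lies wholly in Rmst exons, averaged 1.08 ± 0.291 CPM in induced libraries and 1.07 ± 0.194 CPM in controls (limma adjusted p = 1), from 8 to 16 recovered reads a library. Neither stands in for the level of Rmst. Sox2, its known partner, averaged 255 ± 15.5 CPM in induced libraries and 257 ± 22.3 CPM in controls (limma adjusted p = 0.97).

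Levels of different genes can be compared only per length, and are given here as CPM per kb of annotated exon sequence. In the controls Malat1 (mean 38.7, range 11.6 to 88.4) and H19 (mean 30.5, range 26.1 to 38.1) were highest. Meg3 (mean 9.92, range 5.997 to 18.6) and Miat (mean 7.45, range 4.41 to 14.1) followed, then Mir17hg (mean 5.12) and C130071C03Rik (mean 3.95, range 3.77 to 4.16). Snhg11 (mean 1.95) and Neat1 (mean 0.987) were lowest. Every gene in this order overlapped the next in range except H19, which lay above Meg3 in all controls. In induced libraries H19 (mean 38.2) and Malat1 (mean 37.5) were again highest, and C130071C03Rik (mean 1.15, range 0.371 to 2.16) and Neat1 (mean 1.29, range 1.09 to 1.63) were lowest and overlapped, C130071C03Rik having the wider range on both sides. These figures assume that all annotated exons were in use, which lowers the value of genes with long alternative ends such as Neat1. They also assume that each RNA was captured equally well. Poly(A) RNA was sequenced, while the mature 3′ end of Malat1 is not made by polyadenylation, so its place in the order may not be that of its abundance.

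Apart from C130071C03Rik and H19, the measured genes shared control 3 as their highest control. These were Meg3, Miat, Malat1, Neat1, Snhg11 and Mir17hg, and control 3 was the highest of all 8 libraries for 5 of them, the exception being Miat. Relative to the mean of the other 3 controls, control 3 was 3.99 times as high for Malat1, 3.14 times for Snhg11, 2.69 times for Miat, 2.65 times for Meg3, 2.35 times for Neat1 and 2.17 times for Mir17hg. It was 0.940 times as high for C130071C03Rik and 0.815 times for H19. Induced library 4 was the highest induced library for 6 of the 8, all but H19 and Snhg11. In none of the 8 genes did the gap between a library and the rest of its group pass Dixon's 95% criterion for 4 samples, the largest share of the range being 0.813, for the controls of Snhg11.

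The same libraries stood out across long non-coding RNAs at large. Among 660 long non-coding RNA genes of the table, with the set left out, control 3 was the highest control for 55.5%, against 26.1% of 13676 protein-coding genes. Protein-coding genes were also uneven over the controls, with control 1 the highest for 40.0% of them and for 22.1% of the long non-coding RNAs. Induced library 4 was the highest induced library for 49.2% of the long non-coding RNAs and for 29.4% of protein-coding genes. The median long non-coding RNA lay 0.36 above the mean of the other controls on the log2 scale in control 3 and 0.27 above that of the other induced libraries in induced library 4, whereas protein-coding medians stayed within 0.04 of it in each library. Long non-coding RNAs also had a wider spread, with a median SD of log2 values of 0.32 in induced libraries and 0.40 in controls, against 0.11 in induced libraries and 0.19 in controls for protein-coding genes. Of 667 long non-coding RNAs 9 were called higher and 19 lower (4.198%), against 669 higher and 316 lower of 13677 protein-coding genes (7.20%). Of all genes 6.81% were called. The classes were not matched for level or recovered reads, so neither their spreads nor their shares of calls are compared at equal precision. Whether the pattern of control 3 and induced library 4 comes from the cells or from the handling of these libraries was not tested.

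**Figure D3:**
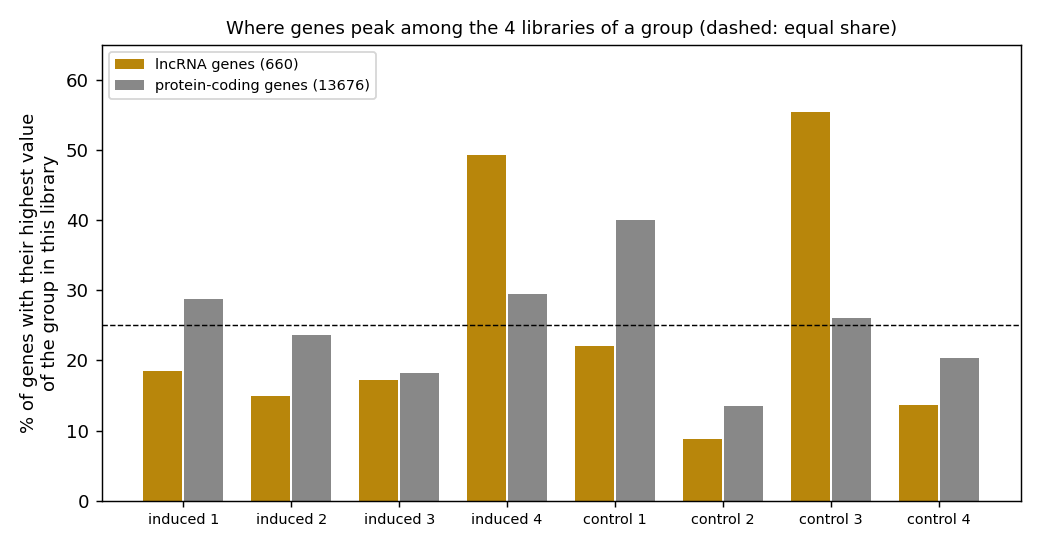
Share of genes (percent, vertical axis) with their highest value of the group in each library, for 660 long non-coding RNAs and 13676 protein-coding genes, Bcl6-induced libraries left of controls; the dashed line marks an equal share for the 4 libraries. Control 3 holds 55.5% of long non-coding RNAs and 26.1% of protein-coding genes, and induced library 4 holds 49.2% and 29.4%. Control 1 holds 22.1% of long non-coding RNAs and 40.0% of protein-coding genes.

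Among 28 further neural or developmental long non-coding RNAs that were listed, 17 had a row, and in limma 1 was called higher and 2 lower, with a median log2 fold change of 0.01. Sox2ot, the overlapping transcript of the Sox2 locus, had 3.96, 4.01, 8.07 and 9.12 CPM in induced libraries and 12.9, 13.4, 13.1 and 17.6 CPM in controls (log2 fold change -1.27 ± 0.27, limma adjusted p = 0.021). It showed the same lower and higher pair of induced libraries as C130071C03Rik, and its call ended without control 2 or without induced library 1 or 2. Pantr2, which neighbours the neural factor gene Pou3f3, averaged 0.589 ± 0.279 CPM in induced libraries and 2.12 ± 0.583 CPM in controls (log2 fold change -1.81 ± 0.34, limma adjusted p = 0.013), from 5 to 10 recovered reads in induced libraries and 13 to 26 in controls, and its call ended without control 2 (limma adjusted p = 0.052). Pantr1, from the other side of Pou3f3, had 6.41, 8.07, 17.6 and 23.1 CPM in induced libraries and 40.7, 32.3, 21.2 and 32.5 CPM in controls. Its groups overlapped between induced library 4 and control 3, and it just missed the threshold (log2 fold change -1.35 ± 0.36, limma adjusted p = 0.0505).

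Dlx6os1, the antisense RNA of the Dlx5 and Dlx6 locus, moved the other way. It had 6.06, 6.56, 8.07 and 9.97 CPM in induced libraries and 2.46, 4.01, 5.07 and 3.81 CPM in controls, with no overlap (log2 fold change 1.01 ± 0.23, limma adjusted p = 0.029). Its call held only without control 1 or without control 3. Reads of an antisense RNA and of the gene opposite it cannot be told apart here, because the sources used here do not give whether counting used strand. This limit also covers members of the set with exon bases opposite another gene. Among them are C130071C03Rik (1327 bases, Gm33366), Miat (2260 bases, Gm26953) and Meg3 (1228 bases, Gm26906).

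**Figure D4:**
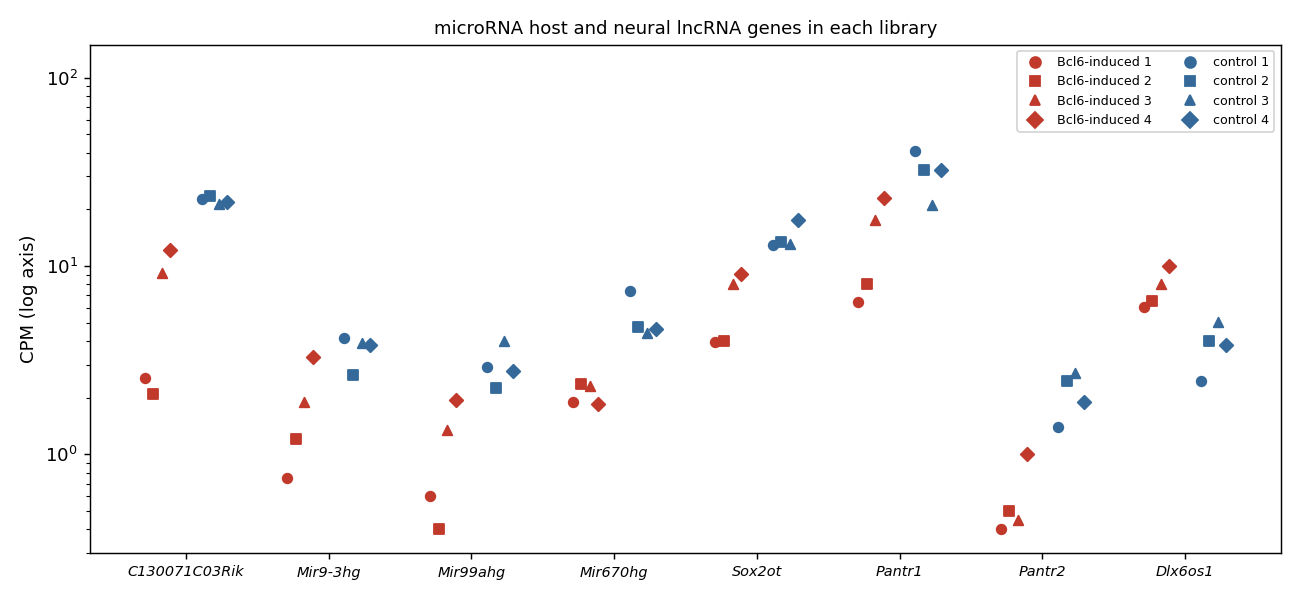
Level in CPM (vertical axis, log scale) of C130071C03Rik and 7 other microRNA host or neural long non-coding RNA genes, with each point a library, Bcl6-induced left of control and marker shapes for differentiations 1 to 4. Induced libraries 1 and 2 lie below 3 and 4 for C130071C03Rik, Mir9-3hg, Mir99ahg, Sox2ot and Pantr1, and also for Dlx6os1, the only one of these genes that is higher in induced libraries than in controls.

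The protein-coding genes next to each long non-coding RNA were mostly not called. Mef2c, a transcription factor of neurons and muscle that lies 54.3 kb from C130071C03Rik, was called higher while its neighbour was lower. It had 4.66, 4.46, 5.41 and 3.41 CPM in induced libraries and 1.603, 2.55, 2.81 and 2.21 CPM in controls (log2 fold change 0.96 ± 0.22, limma adjusted p = 0.028), and its call ended without control 2 or 4 and without induced library 1, 2 or 3. Its recovered reads numbered 35 to 70 in induced libraries and 15 to 27 in controls. Tmem161b, 338.1 kb to the other side, averaged 20.6 ± 1.08 CPM in induced libraries and 21.3 ± 1.74 CPM in controls (limma adjusted p = 0.81). Frmd8, beside Neat1, did not pass (limma adjusted p = 0.39), nor did Mrpl23 beside H19 (adjusted p = 0.19), Tpst2 beside Miat (adjusted p = 0.15) and Ralgapb beside Snhg11 (adjusted p = 0.23). Tmpo, 889.7 kb from Rmst, was called lower, at 292 ± 16.9 CPM in induced libraries and 353 ± 12.9 CPM in controls (log2 fold change -0.27 ± 0.07, limma adjusted p = 0.035), and its call ended under the same left-out libraries as that of Mef2c.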

How the data were processed

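Poly(A) RNA of 8 cultures (4 Bcl6-induced, 4 control) was sequenced from stranded TruSeq mRNA libraries, per the labels' protocols. The tools HTSeq 0.9.1, edgeR 3.20.1 and STAR 2.5.3a, with mm10 as the build, are named without their roles, per the submitters' processing notes. The values the authors deposited are a score: reads scaled to totals of 19.93 to 19.96 M in each library and rounded up. Decimal commas had become column breaks (36 cells under 24 header names), and all 14954 lines were rejoined. At least 99.6% of values per library were multiples of a step between 1.33 and 2.12 that rounding up returned exactly (at most 79.3% with a shifted step), which gave the recovered reads. Their totals limit the precision of low genes to counting error at best.

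CPM was the value over its library total. Groups were compared with limma 3.58.1 (R 4.3.3) with a variance trend on log2(value + 1), without covariates, over all genes, with Benjamini-Hochberg adjustment at 0.05. A fold change on this scale understates that of low genes. The procedure was tested on simulated data in which genes varied independently of each other. Shifts shared by many genes of a library were not simulated, so that test does not cover them. The labels number differentiations but do not say how separate the cultures were, so the p-values cover library-to-library spread, which may be technical. The 9 genes and all lists were chosen with earlier results of these data known. Named were all 9, listed genes that passed the test, and genes in a locus or partnership with one of the 9. Gas5, Kcnq1ot1, Pantr1, Pax6, Pou5f1 and Vim fall outside this rule and were named after their values were seen. Gene spans, types and exon lengths are from GENCODE M21 (GRCm38), which holds 14930 of the table's identifiers. Alternatives were other pseudocounts, filters, scalings, a replicate block and left-out libraries.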

Additional observations from a re-analysis of the deposited data

How the results depend on the processing

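Depth limits genes with few recovered reads, such as Gm27753 and Pantr2, by counting error. The count of changed genes and each of the 8 genes were refitted in 20 alternatives, listed genes and neighbours that passed only with 1 library left out and with a replicate block, and other named genes in none. The length trend, array weights and the joint left-out libraries were chosen after seeing the data. The count of changed genes (1019) ranged over 308 to 1697 with 1 library left out, and was 67 without induced libraries 1 and 2, 1585 with the trend on exon length taken off and 2507 with array weights. C130071C03Rik kept its direction throughout (-2.59 to -1.75 with 1 library left out) but missed the threshold without a variance trend (-2.16, limma adjusted p = 0.057) and without controls 1 and 3 (-2.18, limma adjusted p = 0.072). H19 was higher throughout (0.27 to 0.45 with 1 library left out) and passed with the length trend taken off (0.32) and with array weights (0.44). It also passed without controls 1 and 3 (0.40), but these were its highest and lowest controls. Leaving them out narrows its control spread, so that pass is a description and no test. With 1 library left out, Meg3 ranged over -0.34 to 0.21, Miat over -0.50 to 0.28, Malat1 over -0.17 to 0.81, Neat1 over 0.31 to 0.82, Snhg11 over 0.06 to 0.69 and Mir17hg over -0.46 to 0.02. Without controls 1 and 3 the sign turned for Meg3 (0.10), Miat (0.16) and Mir17hg (0.07), and without induced libraries 1 and 2 for Miat (0.57), Snhg11 (-0.05) and Mir17hg (0.03). The cause was not tested.

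The main fit was planned without a pairing by differentiation number, and the block was an alternative. Deviations of same-numbered libraries correlated at 0.03, 0.01, -0.03 and 0.37, and those of differently numbered libraries at -0.32 to 0.32. With the replicate block 827 genes passed (531 higher, 296 lower), C130071C03Rik stood at -2.16 (limma adjusted p = 0.019), and no call among the 8 genes changed. The SE fell for C130071C03Rik (0.48 to 0.40), Miat (0.44 to 0.29) and the others except Snhg11, where it rose (0.39 to 0.42). Of the other called genes that were refitted, Tmpo (limma adjusted p = 0.081) and Tfap2a (limma adjusted p = 0.088) did not pass with the block. The planned edgeR and DESeq2 fits were not run, since the deposited values are not raw counts.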
